A study of Arabidopsis thaliana with 36 samples.

Results

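SBPASE, PRK and RCA are nuclear genes for 3 steps of carbon fixation in the chloroplast, and their transcripts were followed over 1 day in polysome fractions of Arabidopsis thaliana. They were chosen by name: each of the probe sets 251762_at (SBPASE, AT3G55800), 255720_at (PRK, AT1G32060) and 245061_at (RCA, AT2G39730) names 1 of them alone in the platform annotation. They make up 3 of 6805 genes that a tested probe set names alone. All plants were CCA1-ox seedlings in the Columbia background, 10 days old, which overexpress the clock transcription factor CIRCADIAN CLOCK ASSOCIATED 1 from a constitutive promoter in every group. They grew on agar that held 1% sucrose, with light for 16 h and dark for 8 h of each day, and the aerial part was harvested at 6am (ZT0, when the lights came on), 12pm (ZT6), 6pm (ZT12, still in the light) and 12am (ZT18, in the dark). RNA of each extract was separated by polysome fractionation into a non-polysomal, a small polysomal and a large polysomal fraction, with 1 array per fraction and 3 replicates for each of the 12 groups. Wild-type plants are not analysed here, so no value separates the transgene from the daily cycle. The labels do not say whether replicates were grown separately, so the p-values given here speak only of the spread among these samples, part of which can be technical.

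The Calvin cycle fixes CO2 on ribulose bisphosphate with the enzyme Rubisco and then rebuilds that acceptor from sugar phosphates. SBPASE encodes sedoheptulose bisphosphatase, which removes a phosphate in the regeneration part of the cycle. PRK encodes phosphoribulokinase, which makes ribulose bisphosphate in the last step of regeneration. RCA encodes Rubisco activase, an ATP-driven chaperone that frees Rubisco of inhibitory sugar phosphates. In the light, thioredoxins reduce and activate SBPASE and PRK, and in the dark PRK is held inactive in a complex with CP12 and glyceraldehyde phosphate dehydrogenase. RCA makes a longer and a shorter protein by alternative splicing in Arabidopsis, of which the longer is under redox control. RefSeq lists 3 transcripts for RCA and 1 each for SBPASE and PRK, and the annotation used here does not say which RCA transcripts its probe set reads.

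All values are the authors' GCRMA values on a log2 scale, where a difference of 1 is a doubling of signal. They ran from 2.15 to 15.55 over all probe sets and arrays. Means over the 36 arrays were 13.09 for SBPASE, 13.36 for PRK and 13.49 for RCA. A probe set was tested where at least 3 arrays read 5 or higher, as 12635 did, and the 3 genes passed this filter on every array. Levels of different probe sets are not compared with each other, since probes differ in how strongly they bind.

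Arrays of 1 group correlated with r between 0.961 and 0.996. Of 13 listed markers of photosynthetic tissue 4 are among the named probe sets (LHCB4.1, LHCB4.2, PSAN and PSBY), and their mean log2 value was between 12.97 and 13.46 on 6am arrays and between 13.55 and 14.16 at the other times. All 4 rose from 6am to 12pm (median 0.68), as did 32.6% of tested probe sets. From 12am to 6am 3 of them fell (median over the 4 of -0.47), as did 23.4%. SBPASE, PRK and RCA moved in the same directions. In large polysomal against non-polysomal RNA, 2 of the 4 were higher, beside 42.3% of tested probe sets, and 2 lower, beside 37.8%. SPCH and MUTE, early regulators of stomata, and EXPA7 and EXPA18, expansins of root hairs, had means of 2.15 to 2.21, at the lower end of the scale. PYK10, a beta-glucosidase abundant in roots, had a mean of 11.64, and its level rose by 0.52 ± 0.12 (SE) from 6am to 12pm and fell by 0.84 from 12am to 6am, in the same directions as the 3 genes. The mean of the root list (PYK10, EXPA7 and EXPA18, of 10 names) was 4.91 to 5.34 on 6am arrays and 5.04 to 5.59 at the other times. FMA, a regulator of guard cells, moved the other way, with -0.96 ± 0.12 from 6am to 12pm and 0.69 ± 0.12 from 12am to 6am. The part of other cell types in the results was not tested. In bulk tissue, fewer cells of a type and less RNA per cell cannot be told apart. Markers of epidermis, seed and vascular tissue are not among the probe sets named here.

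SBPASE, PRK and RCA transcripts were lowest when the lights came on and stayed high into the night. From 6am to 12pm SBPASE rose 2.15-fold, PRK 1.85-fold and RCA 1.59-fold, and the mean level of all 3 was highest at 6pm. Within single fractions the 12am mean was above that at 6pm for SBPASE (non-polysomal) and RCA (non-polysomal and small polysomal). From 12am to 6am all 3 genes fell again, by 2.42-fold for SBPASE, 2.08-fold for PRK and 2.01-fold for RCA. The level here is the mean of the 3 fractions of an extract (n = 3 extracts per time). A change was called where the adjusted p of limma's moderated test was under 0.05. This fit takes the arrays as independent, although fractions of an extract correlate (consensus correlation 0.355). Its SE and p can therefore be too small for level, and too large for differences between fractions of an extract. The rises from 6am to 12pm and falls from 12am to 6am were also called with the extracts as a random block or with fractions averaged first.

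SBPASE, the bisphosphatase, read 12.38, 12.07 and 12.23 in replicates 1 to 3 of the non-polysomal fraction at 6am, 13.22, 13.32 and 13.54 at 12pm, 13.39, 13.69 and 13.89 at 6pm, and 13.64, 13.99 and 13.53 at 12am. In the small polysomal fraction it read 12.21, 11.74 and 11.89 at 6am, 13.13, 13.13 and 13.14 at 12pm, 13.43, 13.47 and 13.53 at 6pm, and 13.39, 13.35 and 13.01 at 12am. In the large polysomal fraction it read 11.97, 12.24 and 12.49 at 6am, 12.97, 13.27 and 13.41 at 12pm, 13.52, 13.59 and 13.70 at 6pm, and 13.26, 13.49 and 13.06 at 12am. In each fraction all 6am values lay below every value of the other times, with gaps of 0.84, 0.80 and 0.48, while the other times overlapped in the non-polysomal fraction. The mean level was 12.13 ± 0.10 (SD, n = 3) at 6am, 13.24 ± 0.13 at 12pm, 13.58 ± 0.13 at 6pm and 13.41 ± 0.21 at 12am.

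PRK, the kinase, read 12.44, 12.22 and 12.02 in the non-polysomal fraction at 6am, 12.62, 13.49 and 14.01 at 12pm, 13.88, 13.95 and 14.07 at 6pm, and 13.63, 13.65 and 13.74 at 12am. In the small polysomal fraction it read 12.85, 12.25 and 12.53 at 6am, 13.37, 13.33 and 13.66 at 12pm, 13.86, 13.74 and 14.01 at 6pm, and 13.84, 13.61 and 13.59 at 12am. In the large polysomal fraction it read 12.78, 12.79 and 13.01 at 6am, 13.09, 13.61 and 13.67 at 12pm, 13.78, 13.70 and 13.86 at 6pm, and 13.37, 13.45 and 13.51 at 12am. The 6am values again lay below all others in each fraction, but by only 0.17 in the non-polysomal and 0.081 in the large polysomal fraction, where replicate 1 at 12pm was the lowest of the later arrays. The non-polysomal fraction at 12pm had the widest spread of PRK (SD 0.70), against 0.055 in the same fraction at 12am. The mean level was 12.54 ± 0.14 (SD, n = 3) at 6am, 13.43 ± 0.38 at 12pm, 13.87 ± 0.096 at 6pm and 13.60 ± 0.025 at 12am.

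RCA, the activase, read 13.21, 13.08 and 12.21 in the non-polysomal fraction at 6am, 13.51, 13.55 and 13.70 at 12pm, 13.51, 13.95 and 13.94 at 6pm, and 13.95, 13.96 and 13.73 at 12am. In the small polysomal fraction it read 13.30, 12.53 and 11.97 at 6am, 13.10, 13.45 and 13.50 at 12pm, 13.72, 14.04 and 13.87 at 6pm, and 14.16, 13.95 and 13.67 at 12am. In the large polysomal fraction it read 13.10, 12.93 and 12.90 at 6am, 13.14, 13.68 and 13.65 at 12pm, 13.94, 13.93 and 13.92 at 6pm, and 13.73, 13.81 and 13.35 at 12am. The small polysomal fraction is the only one of the 9 combinations of gene and fraction in which 6am overlapped another time, since its replicate 1 exceeded 1 array at 12pm. The spread of RCA at 6am was wide in the non-polysomal (SD 0.54) and small polysomal (SD 0.67) fractions and narrow in the large polysomal fraction (SD 0.11). The mean level was 12.80 ± 0.42 (SD, n = 3) at 6am, 13.48 ± 0.20 at 12pm, 13.87 ± 0.13 at 6pm and 13.81 ± 0.20 at 12am. All 6am arrays lay below all others in 8.98% of tested probe sets in the non-polysomal, 9.22% in the small polysomal and 9.04% in the large polysomal fraction. For 3.26% this held in each of the 3 fractions, as it did for SBPASE and PRK.

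**Figure D1:**
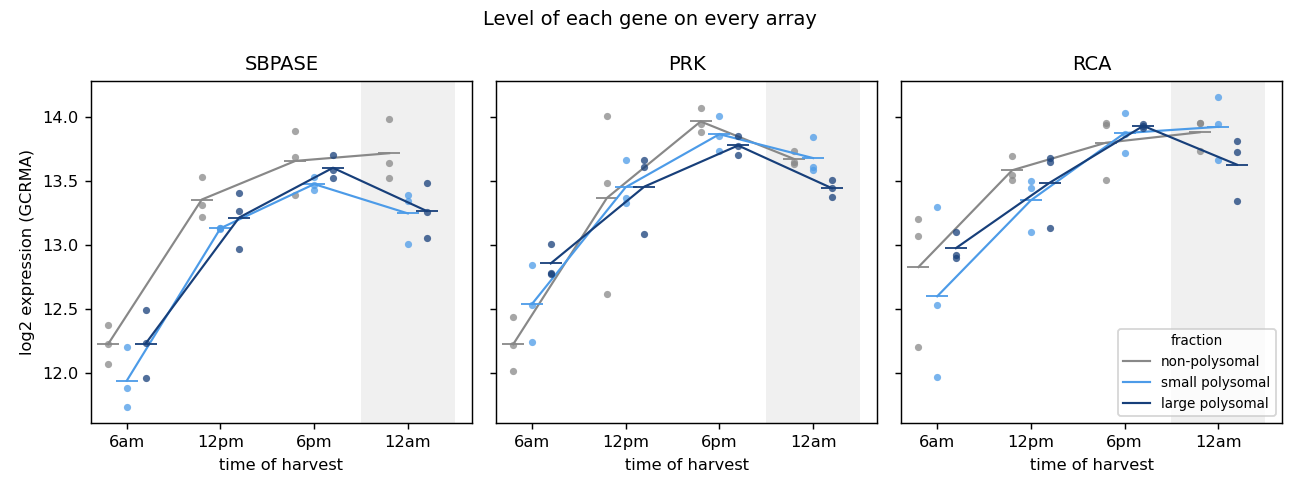
Log2 expression (y axis) of SBPASE, PRK and RCA on every array by time of harvest (x axis); points are replicates, dashes joined by lines are means of 3, colours are fractions, and grey shading marks the harvest in the dark. In each panel the 6am means of the 3 fractions, from 11.94 to 12.98, lie below those of the later times.

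Over the 4 times the level of all 3 genes changed, by a range of 1.45 for SBPASE (limma moderated F test, adjusted p = 6.1e-14), 1.33 for PRK (2.9e-10) and 1.07 for RCA (1.0e-07). Such a call is common here, since 86.6% of tested probe sets changed over time. The size was less common: 14.6% of tested probe sets had a larger range than SBPASE, 17.3% than PRK and 27.2% than RCA. The rise from 6am to 12pm was 1.10 ± 0.10 (SE) for SBPASE (limma, adjusted p = 2.9e-11), 0.88 ± 0.12 for PRK (2.7e-07) and 0.67 ± 0.14 for RCA (0.00011). In this step 32.6% of tested probe sets rose, and 8.41% had a higher value than SBPASE, 12.2% than PRK and 17.3% than RCA. The fall from 12am to 6am was -1.28 ± 0.10 for SBPASE (limma, adjusted p = 8.4e-12), -1.06 ± 0.12 for PRK (3.9e-08) and -1.01 ± 0.14 for RCA (7.6e-07), where 23.4% of tested probe sets fell. Of all tested probe sets 1.80% had a lower value in that step than SBPASE, 3.05% than PRK and 3.47% than RCA. The plot of the 3 genes among all tested probe sets shows these places.

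Replicate 3 moved 1 of these values by more than 1.5 times: without it, the rise of RCA from 6am to 12pm was 0.38 (limma, adjusted p = 0.026). Between 12pm and 6pm the level rose a little further, by 0.34 ± 0.10 for SBPASE (limma, adjusted p = 0.0085), 0.44 ± 0.12 for PRK (0.0078) and 0.39 ± 0.14 for RCA (0.032), in a step where 15% of tested probe sets rose. These 3 calls did not hold with the 12 extracts as a random block (limma, adjusted p = 0.071, 0.061 and 0.12), nor without replicate 2 (0.13, 0.10 and 0.27). Without replicate 1 the PRK value was 0.26 (limma, adjusted p = 0.084) and the RCA value 0.35 (0.066), and the RCA call was lost in 8 of 39 fits that left out 1 array or replicate. From 6pm to 12am no change was called, with -0.17 ± 0.10 for SBPASE (limma, adjusted p = 0.14), -0.27 ± 0.12 for PRK (0.060) and -0.06 ± 0.14 for RCA (0.75), while 58.9% of tested probe sets were called in this step. The PRK fall was called without replicate 1 (-0.30; limma, adjusted p = 0.025) and without the 12pm non-polysomal array of replicate 1 (0.016) or 3 (0.028), and the SBPASE value was 0.00 without replicate 3 (0.99). The 95% interval of this difference was -0.37 to 0.03 for SBPASE, -0.52 to -0.02 for PRK (before adjustment for the number of probe sets) and -0.34 to 0.23 for RCA. In the order of levels 6am came first for every gene, followed by 12pm, 12am and 6pm. Between the neighbours 12pm and 12am no difference was called for SBPASE (0.18 ± 0.10; limma, adjusted p = 0.12) or PRK (0.17 ± 0.12, adjusted p = 0.23). Both depended on replicate 3: SBPASE was called when it was left out (0.35; limma, adjusted p = 0.018), and PRK when its 12pm non-polysomal array was (0.28, adjusted p = 0.029), with ranges of 0.08 to 0.35 and -0.04 to 0.34 over the 39 fits. RCA was higher at 12am than at 12pm by 0.34 ± 0.14 (limma, adjusted p = 0.038), beside 29.5% of tested probe sets. That call was lost with the extracts as a random block (limma, adjusted p = 0.10), without replicate 1 (0.16, adjusted p = 0.34) and in 12 of the 39 fits that left out 1 array or replicate. Both a called rise from 6am to 12pm and a called fall from 12am to 6am were found in 13.7% of tested probe sets, and both without a called change from 6pm to 12am in 4.65%.

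**Figure D2:**
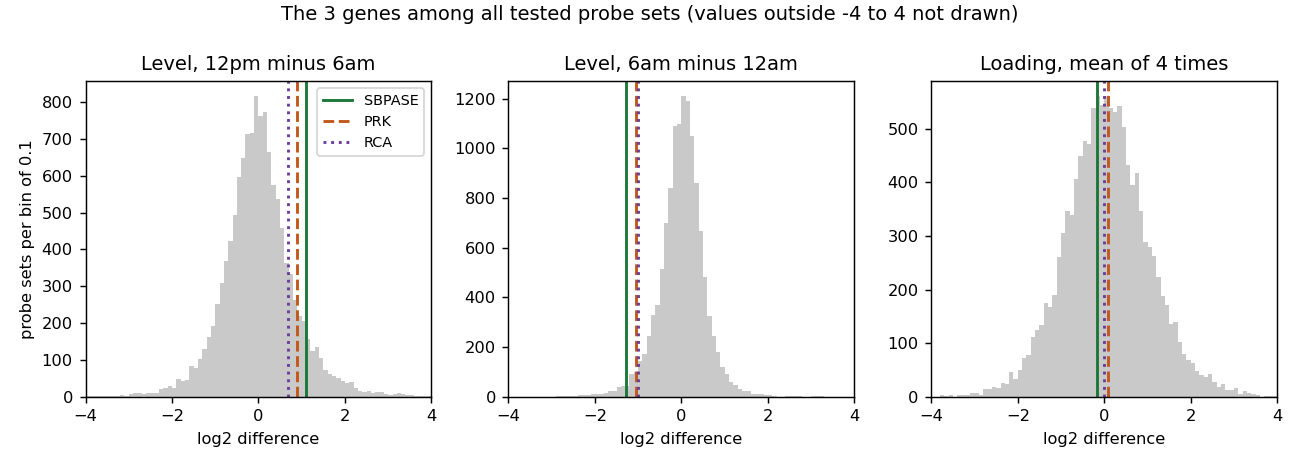
Distribution of the log2 difference (x axis) over 12635 tested probe sets, in bins of 0.1 (y axis, probe sets per bin), for 2 steps in level and for loading; vertical lines mark SBPASE, PRK and RCA. The lines lie at 0.67 to 1.10 in the first panel, at -1.28 to -1.01 in the second and at -0.16 to 0.08 near the middle of the third.

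Each gene was lowest at 6am in every fraction. In all 9 combinations of gene and fraction the level changed over the 4 times (limma moderated F test), with ranges of 1.49, 1.53 and 1.37 for SBPASE in the non-polysomal, small and large polysomal fraction, 1.74, 1.33 and 0.92 for PRK, and 1.05, 1.32 and 0.95 for RCA. Of all tested probe sets 68.6%, 61.3% and 59.1% changed in these fractions. After a shift of all arrays to the same spike-in signal the 3 calls in the small polysomal fraction were lost (limma, adjusted p = 0.059 for SBPASE, 0.18 for PRK and 0.17 for RCA). Without replicate 2 the large polysomal calls of PRK (limma, adjusted p = 0.15) and RCA (0.23) and the non-polysomal call of RCA (0.059) were lost as well.

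In the non-polysomal fraction the rise from 6am to 12pm was 1.13 ± 0.17 for SBPASE, 1.14 ± 0.21 for PRK and 0.76 ± 0.24 for RCA, and all 3 were called, beside 23.3% of tested probe sets that rose there. In the large polysomal fraction the rise was 0.99 ± 0.17 for SBPASE (limma, adjusted p = 1.7e-05) and 0.60 ± 0.21 for PRK (0.021), while the 0.51 ± 0.24 of RCA was not called (0.081). The RCA rise was called with quantile normalization (0.60; limma, adjusted p = 0.022), cyclic loess (0.58, adjusted p = 0.029) or the arrays of that fraction alone (adjusted p = 0.026), without replicate 1 (0.75, adjusted p = 0.016) and without its 12pm array of that fraction (0.69, adjusted p = 0.036). There, 23.7% of tested probe sets rose. The PRK call was lost in 6 of 15 fits that left out 1 replicate or 1 large polysomal array, with values from 0.49 to 0.78. The non-polysomal rise of RCA was 0.44 and not called (limma, adjusted p = 0.14) without replicate 3 of that fraction at 6am, and the call was also lost when replicate 2 (0.90, adjusted p = 0.078) or 3 (0.39, adjusted p = 0.23) of all groups was left out, and with cyclic loess (0.40, adjusted p = 0.14). In the small polysomal fraction the rise was 1.19 ± 0.17 for SBPASE and 0.91 ± 0.21 for PRK, beside 23% of tested probe sets that rose. The PRK call there was lost without replicate 2 (0.83; limma, adjusted p = 0.062). RCA rose there by 0.75 ± 0.24 (limma, adjusted p = 0.012), which was 0.43 (0.15) without replicate 3 of that fraction at 6am, 0.67 (0.052) without its replicate 3 at 12pm, 0.67 (0.19) without replicate 2 of all groups and 0.36 (0.27) without replicate 3 of all groups. Without replicate 3 of all groups the non-polysomal rise of PRK was 0.72. The fall from 12am to 6am was smallest in the large polysomal fraction for every gene, at -1.04 ± 0.17 for SBPASE, -0.59 ± 0.21 for PRK and -0.65 ± 0.24 for RCA. In the same order it was -1.49 ± 0.17, -1.45 ± 0.21 and -1.05 ± 0.24 in the non-polysomal fraction. In the small polysomal fraction it was -1.31 ± 0.17, -1.14 ± 0.21 and -1.32 ± 0.24. The small polysomal calls of PRK (-1.03; limma, adjusted p = 0.073) and RCA (-1.28, adjusted p = 0.051) were lost without replicate 2. With the arrays taken as independent, no gene had a called difference between the large polysomal and non-polysomal falls (limma, adjusted p = 0.23, 0.071 and 0.50). In this step 17% of tested probe sets fell in the non-polysomal, 12.7% in the small polysomal and 10.5% in the large polysomal fraction. The large polysomal value of PRK was just called (limma, adjusted p = 0.049), that of RCA just not (0.054), and the PRK call was lost in 13 of 15 fits that left out 1 replicate or 1 array of the fraction, with no filter (0.083) and with median centring (0.054). The RCA fall was called with the replicate number (limma, adjusted p = 0.039) or the extracts (0.037) as a block, with quantile normalization (-0.72, adjusted p = 0.015), cyclic loess (-0.73, adjusted p = 0.017), the trended robust fit (0.040), the filter at 7 (0.047) or that fraction's arrays alone (0.018). It was also called in 3 fits that left out replicate 3 (-0.76; limma, adjusted p = 0.041), its 12am large polysomal array (-0.79, adjusted p = 0.039) or the 12pm one of replicate 1 (0.049). After the spike-in shift no step in the small or large polysomal fraction was called, and the non-polysomal fall of RCA (-1.39; limma, adjusted p = 0.099) was not called either. From 12pm to 6pm no gene was called in any fraction, with values from 0.21 for RCA to 0.60 for PRK, both in the non-polysomal fraction, beside 11.7%, 4.74% and 1.46% of tested probe sets called in the non-polysomal, small and large polysomal fraction. The PRK value (limma, adjusted p = 0.066) was called with the replicate number as a block (0.044), quantile normalization (0.63, adjusted p = 0.024) or the trended robust fit (0.047). Without the 12pm non-polysomal array of replicate 3 it was 0.92 and called (limma, adjusted p = 0.0051), in a range of 0.22 to 0.92 over 15 fits. From 6pm to 12am none was called either, with values from -0.34 for SBPASE in the large to 0.08 for RCA in the non-polysomal fraction, beside 35.3%, 34% and 38.2%. Whether the fractions differed in these steps is the question of loading over time.

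Loading is the log2 value of an extract in its large polysomal fraction less that in its non-polysomal fraction, and asks how a transcript is spread between these fractions. Averaged over the 4 times it was close to 0 for all 3 genes, at -0.16 ± 0.08 (SE) for SBPASE (limma, adjusted p = 0.081), 0.08 ± 0.11 for PRK (0.52) and -0.02 ± 0.12 for RCA (0.90). None was called, while 80.1% of tested probe sets were. The 95% intervals were -0.33 to 0.01 for SBPASE, -0.14 to 0.29 for PRK and -0.27 to 0.23 for RCA. They bound the differences left possible by the fit that takes arrays as independent, and can be too wide for a difference within extracts. The SBPASE loading was called where the 12 extracts entered as a random block (limma, adjusted p = 0.0305). SBPASE was also lower in the small polysomal than in the non-polysomal fraction, by -0.29 ± 0.08 (limma, adjusted p = 0.0033), beside 31.6% of tested probe sets that were lower. That call was lost without replicate 2 (-0.26; limma, adjusted p = 0.075) or 3 (-0.23, adjusted p = 0.056) and with quantile normalization (-0.15, adjusted p = 0.085). PRK (0.08 ± 0.11) and RCA (-0.09 ± 0.12) were not called in this comparison. Between large and small polysomal RNA the differences were 0.13 ± 0.08, 0.00 ± 0.11 and 0.07 ± 0.12 for SBPASE, PRK and RCA. None of them was called, as against 55.5% of tested probe sets.

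Normalization makes the arrays of all fractions alike on average, so a loading is read against that average. The mean log2 signal of 27 probe sets for poly(A) spike-in RNA was 7.36 to 8.82 on non-polysomal, 6.18 to 8.09 on small polysomal and 4.86 to 6.50 on large polysomal arrays. After the shift to equal spike-in signal the median loading of all tested probe sets was 2.38, and that of SBPASE was 2.17, of PRK 2.41 and of RCA 2.31. Relative to that shift the 3 genes were at -0.22, 0.02 and -0.07. Whether equal amounts of spike-in RNA were added to each fraction is not given in the sources used here.

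PRK had its highest loading at 6am, when its level was lowest. Its loading in replicates 1 to 3 was 0.34, 0.56 and 0.99 at 6am, 0.48, 0.13 and -0.34 at 12pm, -0.11, -0.24 and -0.21 at 6pm, and -0.26, -0.20 and -0.22 at 12am. All 6am extracts were above 0 and all extracts at 6pm and 12am below, while 12pm spread across both. The share of all tested probe sets whose loading separates in this way was not counted. At 6am the PRK loading was 0.63 ± 0.21, or 1.55-fold more signal in large polysomal RNA (limma, adjusted p = 0.013), where 31.4% of tested probe sets had a called loading above 0. That call was lost with cyclic loess (0.38, adjusted p = 0.078) and without replicate 2 (0.66, adjusted p = 0.11) or 3 (0.45, adjusted p = 0.15). It was also lost without the non-polysomal (0.53, adjusted p = 0.064) or the large polysomal (0.55, adjusted p = 0.055) array of replicate 3 at 6am.

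The change of PRK loading over the 4 times had a range of 0.86 and was not called when the arrays were taken as independent (limma moderated F test, adjusted p = 0.13), as against 12.7% of tested probe sets that were. It was called with the 12 extracts as a random block (adjusted p = 0.017) or as fixed terms (0.018), where the number of called probe sets rose from 1599 to 4385 and 4499. It was also called without replicate 1 (1.01; limma, adjusted p = 0.026) and without the non-polysomal array at 12pm of replicate 1 (0.92, adjusted p = 0.019) or 3 (0.86, adjusted p = 0.039). The step of PRK loading from 12am to 6am was 0.86 ± 0.30 (limma, adjusted p = 0.071), not called beside 5.19% of tested probe sets that rose, and was likewise called with the extracts as a random block (0.011). With cyclic loess the range over time was 0.46 (limma moderated F test, adjusted p = 0.39).

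SBPASE loading was -0.41, 0.16 and 0.26 in replicates 1 to 3 at 6am, -0.25, -0.05 and -0.12 at 12pm, 0.13, -0.11 and -0.18 at 6pm, and -0.38, -0.50 and -0.47 at 12am. The 12am values lay close together, and of the other extracts only replicate 1 at 6am was as low. At 12am the SBPASE loading was -0.45 ± 0.17 (limma, adjusted p = 0.022), beside 28.9% of tested probe sets with a called loading below 0. This call was lost with cyclic loess (-0.31, adjusted p = 0.089), without replicate 2 (-0.43, adjusted p = 0.16) or 3 (-0.44, adjusted p = 0.076), and without the 12am non-polysomal array of replicate 2 (-0.32, adjusted p = 0.14) or the 12am large polysomal array of replicate 3 (-0.34, adjusted p = 0.12). It was also lost where the large polysomal fraction was set against the mean of both others (-0.22, adjusted p = 0.22). RCA loading was -0.10, -0.15 and 0.70 at 6am, -0.37, 0.13 and -0.05 at 12pm, 0.44, -0.02 and -0.02 at 6pm, and -0.23, -0.14 and -0.39 at 12am. The times overlapped for RCA, no time was called, and replicate 3 at 6am and replicate 1 at 6pm stood above the rest. Over the 4 times neither SBPASE loading (range 0.45; limma moderated F test, adjusted p = 0.44) nor RCA loading (0.40, adjusted p = 0.74) was called.

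**Figure D3:**
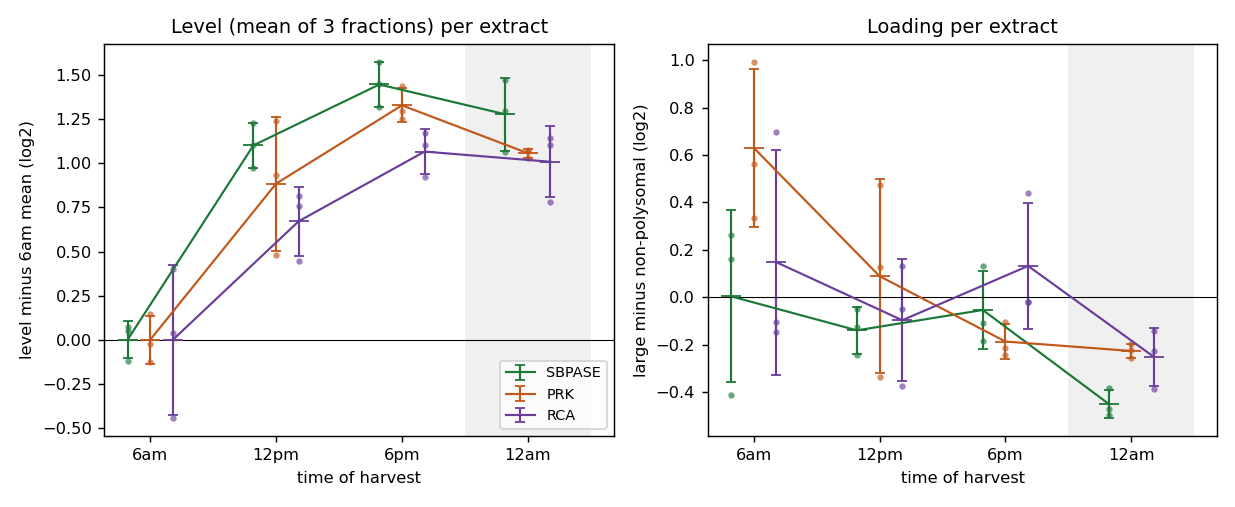
Level relative to the 6am mean of the same gene (left, log2) and loading, large polysomal minus non-polysomal (right, log2), in each extract by time of harvest; points are the 3 extracts, dashes with bars are mean ± SD, colours are genes and grey shading marks the harvest in the dark. Level rises to 6pm for each gene, and PRK loading falls from a mean of 0.63 at 6am to -0.19 at 6pm and -0.23 at 12am.

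The 3 genes were compared with each other through their within-extract differences over the 4 times, which remove what an extract shares. For level, the difference ranged over 0.22 between SBPASE and PRK (exact permutation test over 12 extracts, p = 0.44, adjusted over 6 tests 0.60), over 0.43 between SBPASE and RCA (exact p = 0.18, adjusted 0.36) and over 0.26 between PRK and RCA (exact p = 0.50, adjusted 0.60). No difference in daily change of level between these genes passed the test, although SBPASE had the largest range and RCA the smallest. For loading, the difference ranged over 0.76 between SBPASE and PRK (exact p = 0.056, adjusted 0.28), over 0.80 between PRK and RCA (exact p = 0.093, adjusted 0.28) and over 0.16 between SBPASE and RCA (exact p = 0.86, adjusted 0.86). SBPASE minus PRK was -0.63 at 6am and 0.13 at 6pm, but no pair passed the test. Without 1 replicate the level ranges ran from 0.21 to 0.69 for SBPASE and RCA, from 0.17 to 0.38 for SBPASE and PRK and from 0.19 to 0.44 for PRK and RCA, where replicate 3 left out gave the highest of each. The loading range of SBPASE and RCA was 0.40 without replicate 2.

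Over the 12 group means of time and fraction, the 3 genes followed each other with Pearson's r of 0.93 for SBPASE and PRK, 0.96 for SBPASE and RCA, and 0.94 for PRK and RCA. All 12 points share arrays between the genes, and no test is given. Among 6823 other probe sets naming 1 gene, those most like SBPASE were AT5G14970 (r = 0.97), AT3G25470 (0.96), AT3G19900 (0.96), AT2G42130 (0.96) and RCA (0.96). Those most like PRK were AT2G27680 (0.98), PRXR1 (0.98), ECS1 (0.98), AT4G10000 (0.98) and AT2G37660 (0.97). Those most like RCA were AT2G27680 (0.96), SBPASE (0.96), AT5G66530 (0.96), PRK (0.94) and HPR (0.94), the last encoding hydroxypyruvate reductase of photorespiration. An r above 0.9 was reached by 45 of these probe sets for SBPASE, 45 for PRK and 24 for RCA.

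Few other genes of the pathway could be set beside them, because most names of the lists are not among the named probe sets. Of 37 listed names for the Calvin cycle 5 were named and tested, the 3 genes and 2 others. The plastid-encoded rbcL, the large subunit of Rubisco, fell from 6am to 12pm (-1.40 ± 0.25) and rose from 12am to 6am (1.01 ± 0.25), opposite in direction to the 3 nuclear genes, and its loading was -2.16 ± 0.22. RNA was primed with oligo(dT), and how well this reads plastid transcripts was not tested. TPI (AT3G55440), the cytosolic triose phosphate isomerase, which is not the chloroplast enzyme of the cycle, rose by 0.27 ± 0.10 and fell by 0.28 in the same steps, and its loading was called at 0.49 ± 0.09 (limma, adjusted p = 5.4e-06). Over these 5 there were 4 rises and 1 fall from 6am to 12pm, where 32.6% of all tested probe sets rose. As 3 of the rises are the genes described here and the other is TPI, this count says nothing further about the cycle. The median of 0.67 is the value of RCA itself, against -0.01 over all tested probe sets.

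All 3 measured members of the redox list rose from 6am to 12pm, beside 32.6% of tested probe sets, and fell from 12am to 6am, beside 23.4%, with TRXF2, a thioredoxin f that reduces Calvin cycle enzymes, at 2.03 ± 0.15 and -1.04 ± 0.15, and ATHM2, a thioredoxin m, at 0.83 ± 0.09 and -0.59 ± 0.09. All 3 also fell from 6pm to 12am (median -0.43), as did 30.3% of tested probe sets, and had a called loading above 0 (median 0.91, TRXF2 at 2.18 ± 0.13), as did 42.3%. The difference between these genes and the 3 Calvin cycle genes was not tested. HPR, the 1 measured photorespiration gene, rose by 0.51 ± 0.07 from 6am to 12pm, fell by 0.57 from 12am to 6am and had a loading of 0.12 ± 0.06 that was not called. All 3 measured light-harvesting genes rose from 6am to 12pm (median 0.54, beside 32.6%) and fell from 12am to 6am (median -0.62, beside 23.4%), with LHCB4.2, an antenna protein of photosystem II, at 0.94 ± 0.095 and -0.86 ± 0.095. LHCB4.1 was at 0.44 ± 0.08 and -0.40 ± 0.08. Both medians are the values of LHCB4.3, whose mean of 4.56 was under the filter value of 5. That gene passed the filter only through its higher arrays, so its calls and the size of both medians are uncertain. LHCB4.1 and LHCB4.2 are also among the photosynthetic tissue markers above, so their changes are counted in both lists. Loading was called below 0 for LHCB4.1 (-0.22) and LHCB4.2 (-0.29), beside 37.8% of tested probe sets, and was 0.27 and not called for LHCB4.3. Both measured genes of starch and sucrose synthesis, APL3 and SBE2.2, rose from 6am to 12pm (1.92 ± 0.15 and 0.52 ± 0.11), beside 32.6%. Neither was called from 12am to 6am. APL3, a large subunit of ADP-glucose pyrophosphorylase, had a mean of 4.00, under the filter value of 5. It passed the filter only through its higher arrays, so both its call and the size of its change are uncertain. Lists of Rubisco assembly factors and carbonic anhydrases had 0 measured members.

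**Figure D4:**
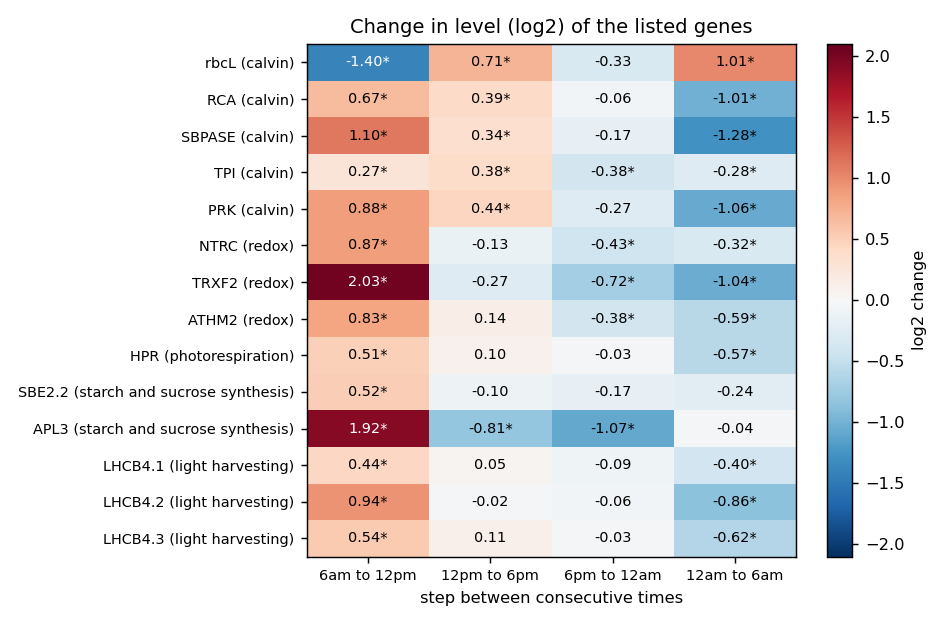
Change in level (log2, colour and number) of the measured genes of the pathway lists (rows) over the steps between consecutive times (columns); an asterisk marks an adjusted p under 0.05. SBPASE, PRK and RCA rise in the first 2 columns and fall in the last, and rbcL falls in the first column (-1.40) and rises in the last (1.01).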

How the data were processed

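The authors deposited 1 log2 expression value for each probe set and array, made with GCRMA, R 3.1 and affy 1.42.3 per the submitters' processing notes. Further settings are not given in the sources used here. Of 22810 probe sets 64 controls were left out and 12635 passed the filter (log2 of 5 or more on at least 3 arrays), of which 6824 name 1 gene, 263 several and 5548 none here. Linear models of 12 group means with 24 residual degrees of freedom were fitted by lmFit and eBayes (limma 3.58.1, R 4.3.3), with Benjamini-Hochberg adjustment across the tested probe sets. The fit was tried on simulated data with independent noise on each array, so its error rate with correlated fractions was not tested. Of added changes of 0.5, 64% were recovered for the level step from 6am to 12pm and 65% for loading. Of changes of 1, 97% and 99% were recovered. Two-sided exact permutation tests used all 369600 assignments of 12 extracts to 4 times, and the smallest p they can give is 6.5e-05. The number of arrays limits the precision.

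With the mean of its group taken from each array, arrays that share time and replicate number correlated above 0.1 in all 36 pairs of fractions (lowest r = 0.14, median 0.42). Equal numbers were therefore taken to pair the fractions of an extract. Arrays of the same replicate number at different times were not compared, so an effect shared by a replicate number was not separated from this pairing here. The block had a consensus correlation of 0.355.

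The members and lists were chosen with earlier results of these data known, and the comparisons of 12pm with 12am and of 6am with 6pm were added after the data were seen, as were the other definitions of loading and the fixed extract terms for loading at a single time. Named genes are the 3 members, the 5 probe sets most like each, all measured Calvin cycle names and at most 2 members of other lists. Symbols GLDH, PGM and FDH were left out of lists, as their loci encode other enzymes than those meant. Python 3.11.15 and matplotlib 3.10.9 made the figures.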

Additional observations from a re-analysis of the deposited data

How the results depend on the processing

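The alternatives changed the filter (none, or 7), the scaling (quantile, cyclic loess, array medians or spike-in signal) and the fit (trended and robust), and added blocks for the replicate number and for extracts, averaged fractions, other definitions of loading, 1 fraction or fewer times alone, and leaving out each array or replicate. For level, the mean of the 3 fractions, the rises from 6am to 12pm, the falls from 12am to 6am and the changes over time kept their direction and call for all 3 genes under each alternative tried for them, and no test between genes was called. The rise from 12pm to 6pm was not called with the extracts as a random replicate block or with averaged fractions for SBPASE (0.34), PRK (0.44) and RCA (0.39), nor for RCA without a filter (0.39) or with cyclic loess (0.29), nor with the spike-in shift (0.63, 0.73 and 0.68). PRK from 6pm to 12am was called with the replicate number as a block and with a trended robust fit (-0.27), and with the spike-in shift (-0.74). SBPASE loading was called with the extracts as a random or fixed replicate block (-0.16), with median centring (-0.25), with the mean of both polysomal fractions (-0.23) and without the 6am arrays (-0.21). The change of PRK loading over time was called with either extract block (0.86). SBPASE in small polysomal against non-polysomal RNA was not called with quantile normalization (-0.15).

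With the spike-in shift, which moves all probe sets by its construction, loading became 2.17 for SBPASE, 2.41 for PRK and 2.31 for RCA, the small polysomal against non-polysomal difference 0.66, 1.02 and 0.86, and the large against small polysomal difference 1.51, 1.38 and 1.45. Loading at 12pm became 1.77 for SBPASE and 1.81 for RCA, at 6pm 2.39 for SBPASE and 2.25 for PRK, and at 12am 2.02 for SBPASE, 2.25 for PRK and 2.22 for RCA. The changes over time in the small polysomal fraction, at 1.64 for SBPASE, 1.44 for PRK and 1.38 for RCA, were no longer called. Median shifts of all tested probe sets were 0.29, 0.27, -0.49 and -0.09 for the 4 steps in level.

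Leaving out 1 array or replicate gave 0.30 to 0.39 for SBPASE, 0.26 to 0.57 for PRK and 0.34 to 0.44 for RCA from 12pm to 6pm, and -0.30 to -0.22 for PRK from 6pm to 12am. SBPASE ran from -0.19 to -0.13 in loading, from -0.38 to -0.23 in small polysomal against non-polysomal RNA and from 0.056 to 0.25 in large against small polysomal RNA. The range over time ran from 0.74 to 1.31 for RCA in non-polysomal RNA, from 0.92 to 1.02 for RCA and 0.88 to 1.00 for PRK in large polysomal RNA, and from 0.68 to 1.01 for PRK loading. Where not said otherwise, the cause was not tested. The number of called probe sets, over all tested, moved by more than 1.5 times for the level step from 12pm to 6pm (3865, against 1625 with the extracts as a random replicate block and 729 with averaged fractions), the level step from 12am to 6am (6135 against 3898 with averaged fractions) and loading over time (1599, against 2635 with the replicate number as a block, 4385 and 4499 with extract blocks, and 953 and 599 with the other definitions of loading). The loading step from 12am to 6am had 1074 calls, against 1638 with the replicate number as a block, 2806 and 2822 with extract blocks, and 520 and 434 with the other definitions. From 12pm to 6pm the non-polysomal fraction had 1478 calls against 220 with its arrays alone, and the small and large polysomal fractions 599 and 184 against 1104 and 531 with the replicate number as a block, and with the spike-in shift the 3 fractions had 6, 5 and 30. With the spike-in shift it fell from 8429 to 4571, from 3865 to 500 and from 6135 to 1398 in those level steps from 6am to 12pm, from 12pm to 6pm and from 12am to 6am, and from 1599 to 7 for loading over time.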
